A study of Mus musculus with 4 samples.

Results

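Early gene body peaks are peaks of RNA polymerase II (Pol II) binding whose summit lies 1500 to 10000 bp downstream of the 5′ end of a protein-coding gene longer than 20 kb, and more than 1500 bp from every annotated transcription start site (TSS). In brain endothelial cells (ECs), 10979 of the 389754 peaks deposited for 4 ChIP-seq libraries met this rule, in the stretches open to it at 10151 genes (together 72.4 Mb, called the zone here). The libraries are old WT Cre replicates 1 and 2, called OWT1 and OWT2, and young EC-K4KO replicates 1 and 2, called YKO1 and YKO2. The members numbered 2530 of 78851 peaks (3.21%) in OWT1, 957 of 39674 (2.41%) in OWT2, 815 of 35638 (2.29%) in YKO1 and 6677 of 235591 (2.83%) in YKO2, and sets of 4 values are given in that order. The old WT Cre libraries came from old mice carrying the endothelial Cre alone (genotype CdH5CRE), and the young EC-K4KO libraries from young mice in which that Cre removes floxed Klf4 (genotype ECK4KO). The Cre is tamoxifen-inducible and driven by the VE-cadherin (Cdh5) promoter, and control and experimental mice were given tamoxifen alike. Genotype and age differ together between the groups and cannot be told apart. The libraries of a group are described as biological replicates, but no source used here says how many mice each came from, and tests over libraries measure only the spread between these 4 samples.

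Pol II assembles at promoters and often pauses a short way downstream of the TSS before it is released into the gene body. In the early gene body, mostly the first intron of a long gene, it accelerates as it elongates, and point-like accumulation there can come from enhancers that lie within introns or from unannotated starts. A peak called in this stretch is therefore commonly set beside the promoter of the same gene, since an elongating polymerase has to pass that promoter first. The deposited calls are regions where paired-end fragments pile up above a background that MACS estimated from the same library, because no control library was used. Pileup is the number of fragments over the summit, fold enrichment is pileup over the local background, and the q-value is the adjusted p of that excess.

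The reference sequence under the leading regions is shown first, because several of the regions lie in repeated sequence, which is described again with the regions that libraries share. The lines that follow give 200 bases centred on the summit for 4 of the 5 regions that ranked highest in all 4 libraries, read 5′ to 3′ on the plus strand of mm10 (GRCm38), and capitals mark bases outside the assembly's repeat mask. They lie at chr1:183299353-183299552 in intron 1 of Aida, chr10:22142569-22142768 in intron 1 of E030030I06Rik, chrX:76598878-76599077 in intron 1 of Cldn34d and chr14:124668377-124668576 in intron 1 of Fgf14.
Aida: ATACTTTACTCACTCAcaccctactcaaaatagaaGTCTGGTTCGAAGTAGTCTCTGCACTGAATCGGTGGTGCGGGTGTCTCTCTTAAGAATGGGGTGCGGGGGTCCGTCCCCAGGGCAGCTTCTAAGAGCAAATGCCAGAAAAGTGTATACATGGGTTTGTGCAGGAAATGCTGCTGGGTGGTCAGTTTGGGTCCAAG
E030030I06Rik: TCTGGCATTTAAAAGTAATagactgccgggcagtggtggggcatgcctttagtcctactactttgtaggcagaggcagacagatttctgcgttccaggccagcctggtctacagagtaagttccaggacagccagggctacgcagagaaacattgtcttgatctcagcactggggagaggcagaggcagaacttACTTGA
Cldn34d: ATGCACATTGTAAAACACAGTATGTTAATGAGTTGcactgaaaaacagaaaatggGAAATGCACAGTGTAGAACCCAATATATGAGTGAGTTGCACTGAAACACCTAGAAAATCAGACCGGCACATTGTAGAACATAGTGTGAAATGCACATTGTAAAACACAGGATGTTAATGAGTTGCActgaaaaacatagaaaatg
Fgf14: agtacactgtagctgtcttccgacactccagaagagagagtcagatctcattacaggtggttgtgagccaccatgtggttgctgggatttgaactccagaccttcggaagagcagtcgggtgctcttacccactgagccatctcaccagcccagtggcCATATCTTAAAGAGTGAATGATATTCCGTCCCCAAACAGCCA
The Aida window had 9.50% of its bases repeat-masked, and its 24-base words had a median of 1 copy in the assembled nuclear chromosomes. Copies in mitochondrial DNA or unplaced contigs were not counted here or below. The E030030I06Rik window was 87.5% repeat-masked, its words had a median of 2 copies, and the same median held for Cldn34d. The Fgf14 window was 79.0% repeat-masked, and its words had a median of 470 copies.

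Several facts of the libraries touch every result. YKO2 held the most peaks of the 4 libraries although it was made from the fewest fragments, 22705175 against 27455452 to 65734178 in the others. Leaving it out is therefore among the alternatives that were run. Single peaks took up very unequal numbers of fragments. The tallest at a protein-coding TSS had a pileup of 9576110, 4201070, 1183310 and 393164 in OWT1, OWT2, YKO1 and YKO2. Total fragments include those piled at such peaks, whose part in the results was not tested. Peaks within 1500 bp of the 5′ end covered 4, 5, 0 and 6 of 15 endothelial marker genes in OWT1, OWT2, YKO1 and YKO2, against 22.9%, 22.4%, 9.47% and 63.4% of all protein-coding genes. Cdh5, Flt1 and Kdr had such a peak in 3 libraries, whereas Pecam1, Tek and Tie1 had none in any library. In YKO1 none of these 15 markers had a TSS peak, while 4 of 49 genes (8.16%) of a longer list of brain endothelial identity and barrier function did, close to the 9.47% of all genes. The corresponding counts were 3, 5, 3 and 12 of 17 neuronal, 2, 2, 2 and 4 of 9 astrocyte, 3, 1, 2 and 9 of 11 oligodendrocyte lineage, 3, 3, 0 and 3 of 8 microglial, 5, 1, 2 and 7 of 9 mural (pericyte and smooth muscle) and 1, 1, 0 and 4 of 7 neutrophil markers, and their part in the results was not tested. Klf4 itself, the deleted gene, is 5324 bp long and has no zone, and a peak lay within 1500 bp of its 5′ end in YKO1 and YKO2 but not in OWT1 or OWT2. Such a peak does not check the deletion, since the extent of the floxed part is not given in the sources used here.

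Early gene body peaks departed from uniform placement in no common direction. Uniform placement means that each chromosome's summits fall with equal chance on any of its sequenced (non-gap) bases, of which the zone holds 2.74%. OWT1 had 2530 early gene body peaks where 2258 were expected, a ratio of 1.12. OWT2 had 957 where 1132 were expected, a ratio of 0.845. YKO1 had 815 where 1006 were expected, a ratio of 0.810, and YKO2 had 6677 where 6720 were expected, a ratio of 0.994. Independent uniform placement would scatter these counts by an SD of 46.8, 33.2, 31.3 and 80.8 peaks in OWT1, OWT2, YKO1 and YKO2. The zone was thus above uniform placement in 1 library, below it in 2 and nearly level in the fourth. Replicates of a group differed as much as the groups did. On the log2 scale the mean was -0.10 ± 0.22 (SD, n = 4), with p = 0.375 in a two-sided exact sign-flip test over the libraries, which cannot go below 0.13 with 4. The old WT Cre mean was -0.04 ± 0.29 and the young EC-K4KO mean -0.16 ± 0.21 (SD, n = 2 each), with p = 0.667 in an exact permutation test that cannot go below 0.33.

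The promoters of the same genes show what an excess looks like in these lists. Within 1500 bp of the 5′ ends, summits were 3.08 times as many as under uniform placement in OWT1, 6.37 times in OWT2, 2.81 times in YKO1 and 3.47 times in YKO2. The highest 500 bp step was the stretch just downstream of the 5′ end in every library, at 7.51, 18.8, 5.99 and 8.13 times uniform placement. Between 1000 and 1500 bp downstream the ratios were still 1.75, 2.55, 1.65 and 1.86, and from 1500 to 3000 bp they were 1.13, 0.741, 0.769 and 0.908. Within 1500 bp all bases were counted, but beyond that border only bases over 1500 bp from every annotated TSS, so the step at 1500 bp holds this filter as well as the distance. Further into the same genes, from 10000 to 20000 bp, the ratios were 1.196, 1.09, 0.888 and 1.13.

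**Figure D1:**
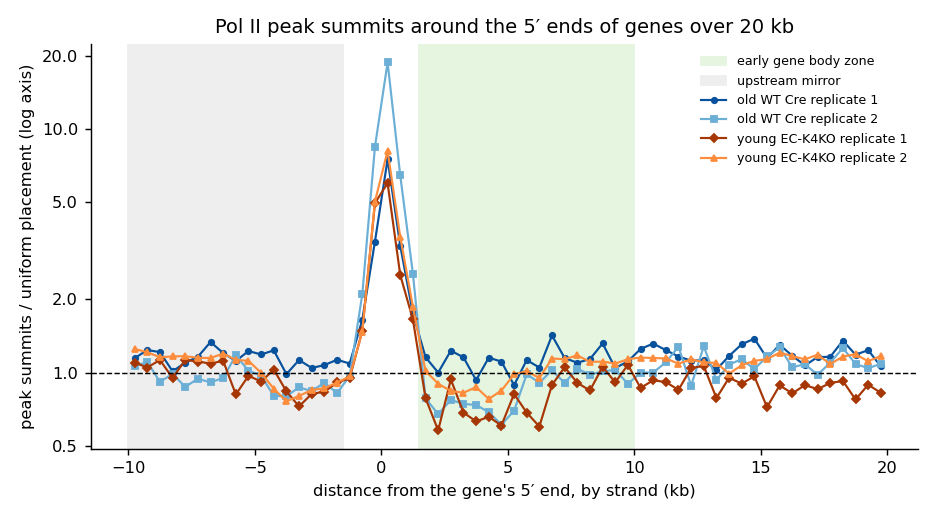
Peak summits per base in 500 bp steps from 10 kb upstream to 20 kb downstream of the 5′ end of genes over 20 kb, divided by uniform placement (log axis), for each library; outside 1500 bp only bases over 1500 bp from every annotated TSS are counted. The lines peak just downstream of the 5′ end and lie between 0.579 and 1.42 across the shaded early gene body zone, and at similar heights in the shaded upstream mirror.

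Within the zone, the stretch nearer to the promoter was the emptier. The split at 5000 bp was chosen after the profile was seen. From 1500 to 5000 bp the ratios to uniform placement were 1.10, 0.714, 0.695 and 0.860 (in the order of libraries used above), and from 5000 to 10000 bp they were 1.14, 0.940, 0.887 and 1.08. The nearer stretch was thinner in 4 of 4 libraries, by a mean of 0.28 ± 0.16 (SD, n = 4) on the log2 scale, with p = 0.13 in the exact sign-flip test, the smallest it allows. In OWT1 the 2 stretches were nearly level. A similar dip is visible on the upstream side, and the regional background against which MACS tested each position spans 10000 bp; its part in the dip was not tested.

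The stretch the same distance upstream of each 5′ end (the mirror, 69.3 Mb) held slightly more summits per base than the zone when all peaks were counted. Early gene body peaks numbered 34.9 per Mb and mirror peaks 35.8 per Mb in OWT1, 13.2 and 14.7 in OWT2, 11.2 and 13.7 in YKO1, and 92.2 and 97.5 in YKO2. The downstream density was lower in 4 of 4 libraries, with ratios of 0.976, 0.900, 0.822 and 0.945. The mean log2 ratio was -0.14 ± 0.11 (SD, n = 4; exact sign-flip p = 0.13, the smallest possible), and the groups, at -0.09 ± 0.08 and -0.18 ± 0.14 (SD, n = 2 each), did not differ beyond their spread (exact permutation p = 0.667). OWT1 reached 1.02 when its list was limited to q of at most 1e-05, to a fold enrichment of at least 4 or to the length of the shortest list. An alternative added after the data were seen took single-copy summits alone (a median of 1 copy of their 24-base words in the nuclear chromosomes). The ratios were then 1.07, 0.968, 0.884 and 0.995, so OWT1 was above 1 and the direction was no longer common to the 4 libraries. The mean log2 ratio was then -0.03 (exact sign-flip p = 0.625). Single-copy summits made up 68.6%, 63.1%, 74.7% and 84.8% of early gene body peaks and 62.8%, 58.6%, 69.4% and 80.5% of mirror peaks, and the bases of zone and mirror were not limited to single-copy sequence in these ratios.

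Base composition moved with these ratios. The median GC content of the 200 bp under early gene body summits was 52.5%, 53.0%, 53.0% and 52.5%, while all 200 bp windows of the zone had a median of 43.5% and those of the whole genome 41.5%. Mirror peaks had medians of 52.0% to 54.0%, peaks more than 3000 bp from every TSS 52.0% to 54.5%, and peaks at protein-coding TSSs 57.5% to 63.0%. GC-rich summits were thus shared with peaks elsewhere. When summits were placed uniformly within classes of equal GC content, an alternative added after the data were seen, the ratios of early gene body peaks to expectation became 0.978, 0.797, 0.692 and 0.878, below 1 in 4 of 4 libraries. The mean log2 ratio was then -0.27 ± 0.21 (SD, n = 4; exact sign-flip p = 0.13). At equal GC content the density relative to the mirror was 0.944, 0.856, 0.794 and 0.918.

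**Figure D2:**
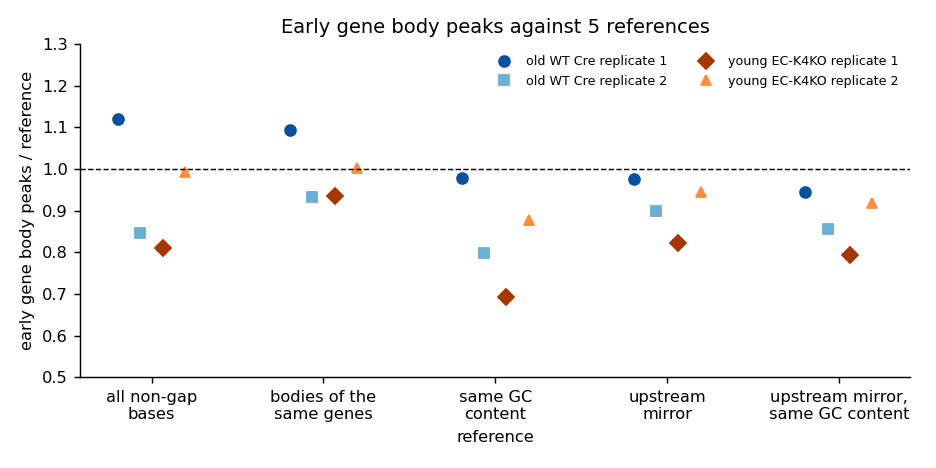
Early gene body peaks of each library (points) divided by 5 references: uniform placement over all non-gap bases, over the bodies of the same genes and within classes of equal GC content, and the peak density of the upstream mirror without and with the GC classes. The dashed line marks equality; at equal GC content all 4 libraries lie below it, from 0.692 to 0.978.

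Genes with a peak at their own TSS had early gene body peaks between 0.905 and 1.06 times as often as genes without, by library. A gene had a TSS peak where any peak other than a member overlapped the 1500 bp on either side of its 5′ end. Of all 10151 genes, 21.8% had an early gene body peak in OWT1, 8.98% in OWT2, 7.64% in YKO1 and 48.0% in YKO2. In OWT1, 602 of 2776 genes with a TSS peak had one (21.7%, 95% exact binomial interval 20.2 to 23.3) and 1614 of 7375 without (21.9%, 20.9 to 22.8). In OWT2, the counts were 242 of 2896 (8.36%, 7.37 to 9.42) and 670 of 7255 (9.24%, 8.58 to 9.92). In both libraries the share was lower in genes with a TSS peak. In YKO1, 88 of 1200 genes with a TSS peak (7.33%, 5.92 to 8.96) and 688 of 8951 without (7.69%, 7.14 to 8.26) had one. In YKO2, the counts were 3567 of 7324 (48.7%, 47.6 to 49.9) and 1303 of 2827 (46.1%, 44.2 to 47.9). The share was thus higher with a TSS peak in YKO2 alone, where the intervals met only at their ends. The intervals cover counting error only, and the comparison rests on the 4 libraries.

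**Figure D3:**
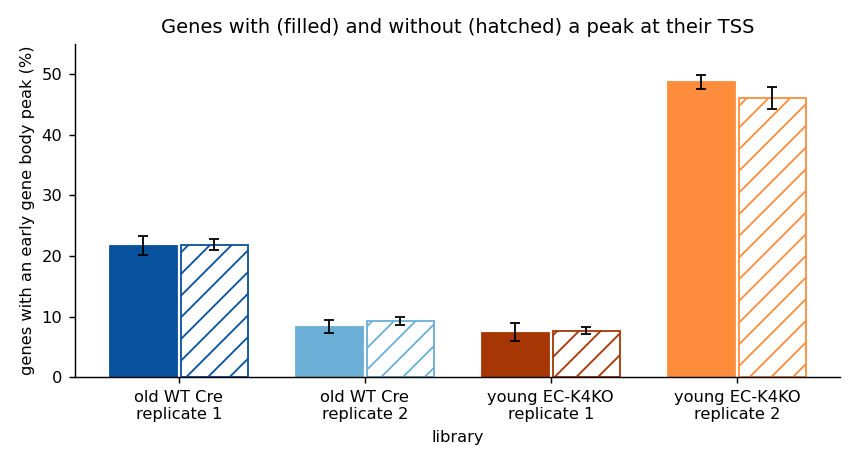
Share of genes over 20 kb with an early gene body peak, for genes with (filled bars) and without (hatched bars) a peak at their own TSS, in each library; error bars are 95% exact binomial intervals. The bars run from 7.33% and 7.69% in YKO1 to 48.7% and 46.1% in YKO2, the only library in which the filled bar is the higher.

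The ratio of the shares was 0.991, 0.905, 0.954 and 1.06, with a mean log2 of -0.04 ± 0.09 (SD, n = 4; exact sign-flip p = 0.5) and a group difference, young EC-K4KO minus old WT Cre, of 0.08 (exact permutation p = 0.667). In the upstream mirror the same ratios were 1.10, 0.836, 1.21 and 0.992. No difference between zone and mirror was detected (mean log2 difference -0.07 ± 0.21, SD, n = 4; exact sign-flip p = 0.625).

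The direction depended on where in the zone and at which genes it was measured. From 1500 to 5000 bp, genes with a TSS peak had early gene body peaks less often in 4 of 4 libraries, with ratios of 0.876, 0.741, 0.811 and 0.847 (mean log2 -0.29 ± 0.10, SD, n = 4), beside 1.04, 0.685, 1.36 and 0.754 in the same stretch of the mirror. From 5000 to 10000 bp the ratios were 1.08, 1.00, 1.11 and 1.15 (0.12 ± 0.08), beside 1.15, 0.959, 1.22 and 1.13 in the mirror. Genes with a TSS peak thus had them more often in OWT1, YKO1 and YKO2. In OWT2 the shares were level, 6.23% with a TSS peak and 6.20% without. Both means reached p = 0.13, the smallest the exact sign-flip test allows, and the stretch beyond 5000 bp was added after the data were seen. Among the 1854 genes whose whole zone lay clear of any other TSS, also added later, the ratios were 1.12, 1.19, 1.62 and 1.22 (mean log2 0.35, exact sign-flip p = 0.13), and in the mirror of those genes they were 1.13, 1.28, 1.98 and 1.21. With only peaks at q of at most 1e-05, the mean log2 ratio was also 0.35 (exact sign-flip p = 0.375), and it rested on YKO1, where 22 of 376 genes with a TSS peak (5.85%) and 225 of 9775 without (2.30%) had a member, beside a ratio of 2.44 in the mirror. In the other libraries the ratio at this threshold was 1.06, 1.03 and 0.958.

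Stronger TSS peaks went with no common change. Genes with a TSS peak were divided by its q rank into 4 groups, which held 642 to 747 genes in OWT1, 581 to 816 in OWT2, at most 326 in YKO1 and 1738 to 1923 in YKO2. From the lowest to the highest rank, the share with an early gene body peak was 24.5%, 18.8%, 20.2% and 23.3% in OWT1 and 9.64%, 6.25%, 9.84% and 8.21% in OWT2, with no steady course in either. In YKO1 it rose from 5.35% through 6.25% and 7.67% to 9.72%, which is 0.696 to 1.26 times the share of genes without a TSS peak. In YKO2 it fell from 55.1% through 51.8% and 46.3% to 41.9%, from 1.196 to 0.910 times that share, so the 2 young EC-K4KO libraries ran in opposite directions. No test was made of these courses. Setting each library's members against the TSS peaks of another library gave ratios of 0.922 to 1.19 over the 12 pairings. The genes best supported as bound at the promoter, 251 with a TSS peak in all 4 libraries, had an early gene body peak in 27.5%, 11.2%, 11.95% and 45.0% of cases, above the share of all genes in 3 libraries and below it in YKO2.

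In shape, early gene body peaks were close to peaks elsewhere away from promoters. Their median width was 217, 190, 188 and 180 bp, against 232, 220, 199 and 220 bp for peaks at protein-coding TSSs and 220, 193, 192 and 182 bp for mirror peaks. They were narrower than TSS peaks in 4 of 4 libraries (mean log2 ratio of medians -0.17 ± 0.10, SD, n = 4; exact sign-flip p = 0.13). Their median fold enrichment was 3.94, 4.85, 4.15 and 4.64, and that of TSS peaks 3.81, 4.85, 4.14 and 5.01, a difference in no common direction (mean log2 -0.01 ± 0.07; exact sign-flip p = 1). Most members were low: the median pileup was 22, 13, 15 and 14 fragments, where the smallest pileup of any called peak was 13, 8, 9 and 7. The tallest member in each library was the Aida region, with 1833, 1042, 1253 and 838 fragments.

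Few early gene body peaks recurred between libraries. In OWT1, 8.77% of them were overlapped by any peak of OWT2, against 17.5% of TSS peaks, 12.8% of peaks more than 3000 bp from a TSS and 9.72% of mirror peaks. In OWT2 the shares found in OWT1 were 23.9%, 22.0%, 27.4% and 24.2% in the same order. In YKO1 the shares found in YKO2 were 22.7%, 47.2%, 27.7% and 21.7%, and in the opposite direction they were 2.79%, 5.15%, 4.36% and 3.05%. The recurrence of early gene body peaks was thus close to that of mirror peaks (mean log2 ratio -0.06 ± 0.10, SD, n = 4; exact sign-flip p = 0.375) and below that of distant peaks in 4 of 4 libraries (-0.42 ± 0.21; exact sign-flip p = 0.13).

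When members that overlap were merged, they formed 9902 regions, of which 9005 were seen in 1 library, 770 in 2, 89 in 3 and 38 in all 4. Both old WT Cre libraries shared 221 regions and both young EC-K4KO libraries shared 180. Members spread uniformly and independently over the zone would give 16.6 and 33.4 such overlaps, so the observed counts were 13.3 and 5.39 times as high. The mirror held 237, 200 and 34 regions shared by the old WT Cre pair, the young EC-K4KO pair and all 4 libraries. Per gene, 3.68% of genes had a member in both old WT Cre libraries, 4.63% in both young EC-K4KO libraries and 0.630% (64 genes) in all 4, while 39.8% had none in any library.

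Repeated sequence rose with the number of libraries that shared a region. A median of more than 1 copy of the 24-base words under the summit was found for 18.1% of regions seen in 1 library, 36.1% in 2, 49.4% in 3 and 78.9% (30 of 38) in all 4. By comparison, 87.4% of windows sampled across the zone were single-copy (a median of 1). The single peaks of regions in all 4 libraries were also wider and stronger, with a median width of 419 bp and a median fold enrichment of 6.01, against 186 bp and 4.35 for peaks of regions in 1 library. These widths are those of each library's own peak and not of the merged region, but a wider peak also has more bases in which to meet another. Counted over members rather than regions, single-copy windows made up 68.6%, 63.1%, 74.7% and 84.8% in the 4 libraries. With single-copy members alone, 75 regions were shared by the old WT Cre pair and 102 by the young EC-K4KO pair, still 9.61 and 4.36 times the number that uniform spread over single-copy sequence gives, and 7 were shared by all 4. Whether reads that match several places were removed is not given in the sources used here, and the part of repeated sequence in the recurrence of single regions was not tested.

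**Figure D4:**
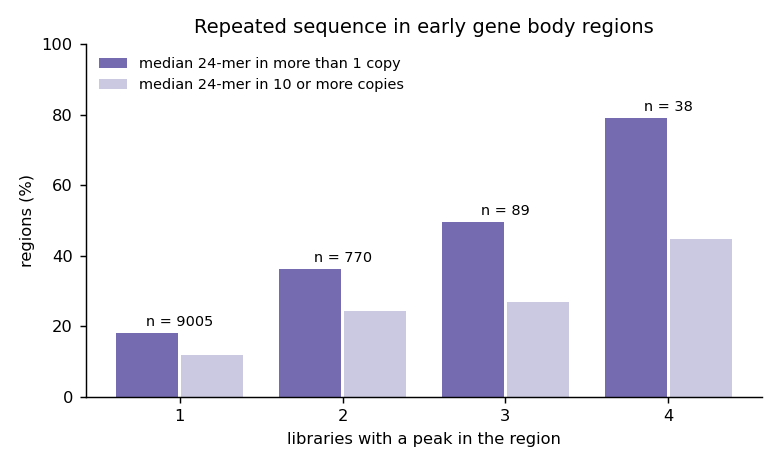
Share of early gene body regions whose 24-base words have a median of more than 1 copy (dark) or of 10 or more copies (light). Copies are those in the assembled nuclear chromosomes. Bars are grouped by the number of libraries with a peak in the region, and n is the number of regions. The dark bars climb from 18.1% of 9005 regions in 1 library to 78.9% of 38 regions in all 4.

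Of the 38 regions present in all 4 libraries, 37 lay in an intron, 20 of them in intron 1, and 1 in an exon. They fell in 36 genes. A TSS peak of the same gene was called in no library for 8 of them, in 1 library for 9 and in 2 or more for 21. The region in Aida, which encodes an axin-binding regulator of JNK signalling, spans chr1:183299171-183299594 and its summits lay 2839 to 2877 bp from the 5′ end. Its fold enrichment was 47.1 in OWT1, 51.8 in OWT2 and 44.0 in both YKO1 and YKO2. As a share of the library's fragments, its pileup was 0.00279% and 0.00380% in the old WT Cre pair and 0.00356% and 0.00369% in the young EC-K4KO pair, so the groups overlapped. No library had a TSS peak at Aida.

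The region in E030030I06Rik (chr10:22141872-22143030) had a fold enrichment of 33.4, 28.1, 32.9 and 35.3, and that gene had a TSS peak in all 4 libraries. The region in Cldn34d, a claudin family gene (chrX:76598558-76599136), had 32.7 in OWT1, 30.8 in OWT2, 35.1 in YKO1 and 22.5 in YKO2. Fgf14, encoding an intracellular regulator of sodium channels, had 22.7 in OWT1, 17.2 in OWT2, 12.7 in YKO1 and 16.98 in YKO2 over repeated sequence (547 copies as the median over the summit windows of the 4 libraries).

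The other leading regions were lower. Intron 4 of Sfi1, which encodes a centrin-binding protein of the centrosome, held the widest of them at 1816 bp (chr11:3184240-3186055), with a fold enrichment of 3.48, 3.63, 3.99 and 4.75. The regions in Gm31371, Myo9a (an unconventional myosin), Rps6kc1 (a ribosomal S6 kinase family member) and Thada had fold enrichments between 6.22 and 18.9. For Rps6kc1 the values were 6.78 in OWT1, 13.7 in OWT2, 7.47 in YKO1 and 18.9 in YKO2, a wider spread within each group than between them. Of the 10 leading regions, Aida and Sfi1 alone had a median of 1 copy.

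**Figure D5:**
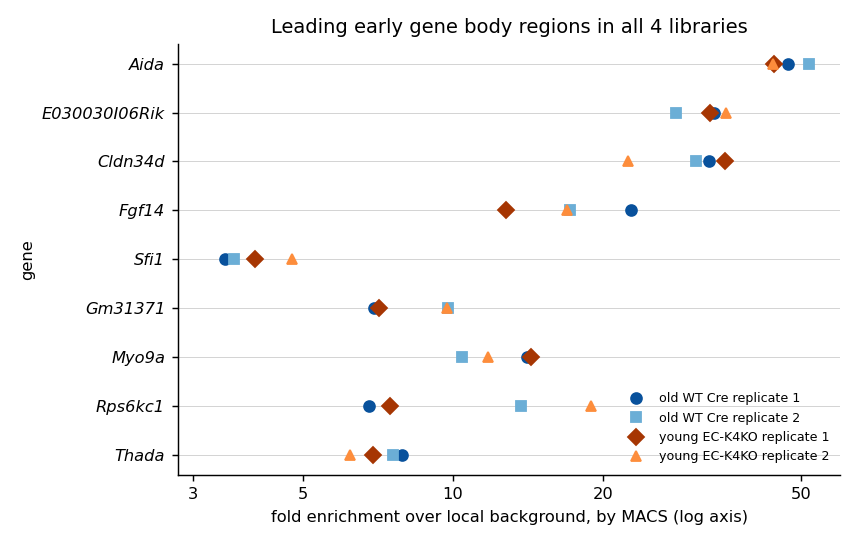
Fold enrichment over local background (log axis) of 9 of the 10 early gene body regions that ranked highest by q in all 4 libraries, with a point for each library. Aida is highest at 44.0 to 51.8, and in Rps6kc1 the points of each group, 6.78 and 13.7 against 7.47 and 18.9, overlap.

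Some early gene body regions were called in both libraries of a group and met no peak of either library of the other. There were 130 such regions among the 221 of old WT Cre (58.8%) and 109 among the 180 of young EC-K4KO (60.6%). By the same rule the share was 44.1% and 52.0% for peaks of any kind, 26.9% and 49.6% for TSS peaks, 47.4% and 52.8% for peaks more than 3000 bp from every TSS, and 55.3% and 58.5% for mirror peaks, so the members stood above all peaks and close to the mirror. Their summit windows were single-copy in 31.5% and 72.5% of cases. With 2 libraries a group, and lists of very unequal length, no test separates these from regions missed in a list.

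The strongest old WT Cre region by the weaker of its q-values lay in intron 2 of Csnk1a1, which encodes casein kinase 1 alpha, with 105 and 42 fragments and a fold enrichment of 19.9 and 16.03. The next lay in intron 1 of Il34, a ligand of the CSF1 receptor (56 and 33 fragments), in intron 1 of Lypd6b (47 and 25), in intron 1 of Tspan15, a tetraspanin (38 and 35), and in intron 1 of Nelfa, a subunit of the negative elongation factor that holds paused Pol II, at chr5:33930656-33930846 (39 and 22). Their words had a median of 26, 1378, 31.5, 3 and 1372 copies, in the same order, so none of the 5 was single-copy sequence. Csnk1a1, Lypd6b, Tspan15 and Nelfa had a TSS peak in 3 libraries and Il34 in 1.

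The strongest young EC-K4KO region lay in intron 1 of Fbxl18, an F-box gene, at chr5:142890302-142890461. It had 434 fragments in YKO1 and 272 in YKO2, with a fold enrichment of 32.9 and 28.1, while no peak of any kind met it in either old WT Cre library. Its window was wholly repeat-masked and its words had a median of 720 copies. The next were intron 1 of Cfap299 (52 and 28 fragments), of Ptpra, a receptor tyrosine phosphatase, at chr2:130458937-130459157 (19 and 20), of Gatad2b, a subunit of the NuRD chromatin remodeller (20 and 14), and of Gm13212 (24 and 14). Ptpra and Gatad2b were single-copy, and both had a fold enrichment of 6.32 to 8.20. In these last 3 regions the pileup was between 14 and 24 fragments, where the smallest called were 9 in YKO1 and 7 in YKO2. With lists of equal length, the regions in Gatad2b and Gm13212 were called in 1 library only.

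No list of genes chosen for this tissue was above the share of all genes in every library. Of 33 genes of brain endothelial identity and barrier function that have a zone, 11, 1, 2 and 17 had an early gene body peak in the 4 libraries (33.3%, 3.03%, 6.06% and 51.5%), beside 21.8%, 8.98%, 7.64% and 48.0% of all genes. The list was above the share of all genes in OWT1 and YKO2 and below it in the other 2 libraries. For Cdh5, encoding VE-cadherin, a member was called in YKO1 alone, and for Kdr, encoding VEGF receptor 2, in OWT1 alone. Pecam1, the endothelial adhesion molecule CD31, had a member in OWT1 and YKO2 but a TSS peak in no library. Tek, Slc2a1 (the glucose transporter GLUT1) and Abcb1a (P-glycoprotein) had none.

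Of 21 genes of endothelial signalling, 6, 1, 0 and 13 had a member (28.6%, 4.76%, none and 61.9%), and of 12 genes of stress, inflammation and senescence, 3, 0, 0 and 5 (25%, none, none and 41.7%), so both lists were below the share of all genes in OWT2 and YKO1 and above it in OWT1, and in YKO2 the first was above it and the second below. Of 30 broadly expressed genes of chromatin and transcription, 8, 3, 2 and 18 had one (26.7%, 10%, 6.67% and 60%), although 17, 14, 6 and 27 of these 30 had a TSS peak. Among them Bptf, a subunit of the NURF remodeller, had a member in all 4 libraries and Chd4, the NuRD ATPase, in 3, at 2830 bp in OWT1, 9480 bp in OWT2 and 8511 bp in YKO2. The strongest Bptf members lay in intron 1, at 3476, 6504, 7498 and 7841 bp from the 5′ end. The YKO1 and YKO2 sites were the nearest to each other. The words under these members had a median of 836 copies in OWT1 and 3716 in OWT2, and of 1 in YKO1 and YKO2. Slc16a1, a monocarboxylate transporter gene that the study examined, is 19795 bp long and so has no zone, and the same holds for Ppp1r15a and Adamts1.

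Markers of other cells had early gene body peaks in small numbers, on both sides of the share of all genes (21.8%, 8.98%, 7.64% and 48.0%). Of 16 neuronal markers with a zone, 3, 0, 1 and 5 had a member (18.8%, none, 6.25% and 31.2%), below that share in every library. Of 8 oligodendrocyte lineage markers it was 2, 1, 0 and 3 (25%, 12.5%, none and 37.5%). Of 7 astrocyte markers, 1, 0, 2 and 2 had one (14.3%, none, 28.6% and 28.6%), of 7 microglial markers 1, 1, 1 and 2 (14.3%, 14.3%, 14.3% and 28.6%) and of 6 mural markers 1, 2, 1 and 1 (16.7%, 33.3%, 16.7% and 16.7%). The 1 neutrophil marker with a zone had none. Of 13 endothelial markers with a zone, 5, 0, 1 and 4 had a member (38.5%, none, 7.69% and 30.8%). In YKO2, where all genes had the highest share, the endothelial markers and each of the other lists of cell markers were below it. Notch3, a mural cell receptor, had 2 members in each old WT Cre library and none in young EC-K4KO. The strongest lay at different sites, 5249 bp from the 5′ end in OWT1 and 7924 bp in OWT2. Anpep, a pericyte aminopeptidase, had 1 in each young EC-K4KO library, 2606 and 6976 bp from the 5′ end, and none in old WT Cre.

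Exons held more early gene body summits than their length gives. Exons of any annotated transcript make up 5.05% of the zone, and 8.70%, 10.7%, 8.71% and 9.85% of members had their summit in one, counting 220 of 2530, 102 of 957, 71 of 815 and 658 of 6677. The excess was 1.72, 2.11, 1.72 and 1.95-fold, in the same direction in 4 of 4 libraries (mean log2 0.90 ± 0.14, SD, n = 4). Zone windows with the GC content of the members lie in exons in 7.19%, 8.71%, 7.40% and 7.57% of cases, and against these the excess was 1.21, 1.22, 1.18 and 1.301-fold (mean log2 0.30 ± 0.06). The first intron took 59.6%, 55.7%, 57.2% and 59.6% of members beside 62.1% of the zone, slightly less than its length in every library (mean log2 -0.10 ± 0.05, SD, n = 4).

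Short motifs of endothelial and stress-related factors were searched on both strands of the 200 bp windows. They were AGGAAG (ETS), TGANTCA (AP-1), GGGNGTGG (KLF and Sp factors), TGACGTCA (CRE), TGTTTAC (FOX), ACAATG (SOX) and GGAATG (TEAD), where N is any base. The KLF and Sp motif was in 11.7%, 12.2%, 10.2% and 9.99% of members and 5.38% of all zone windows, but in 10.6% to 11.3% of zone windows with the same GC content. The ETS motif was in 20%, 18.3%, 24.4% and 24.3% of members against 26.8% to 27.6% of zone windows at that GC content, below it in every library, and the TEAD motif was in 7.91%, 6.90%, 8.34% and 9.85% against 10.9% to 11.2%. The corresponding share of all zone windows was 21.5% for the ETS and 10.1% for the TEAD motif. The AP-1 motif was in 4.03%, 3.87%, 6.13% and 5.29% of members (5.90% of all zone windows and 5.29% to 5.43% at the same GC content), 0.743, 0.731, 1.14 and 0.978 times the latter. The FOX motif was in 1.70%, 1.36%, 0.613% and 1.74% (2.96% of all zone windows), which at the same GC content, where 1.75% to 1.86% hold it, is 0.915, 0.775, 0.345 and 0.937 times as many. For the SOX motif, in 6.40%, 6.27%, 5.77% and 7.53% of members (10.9% of all zone windows, 7.43% to 7.71% at the same GC content), the ratio was 0.831, 0.840, 0.776 and 0.977. The CRE was in 9, 4, 0 and 13 windows, that is in 0.356%, 0.418%, none and 0.195% of members, beside 0.0993% of all zone windows and 0.135% to 0.150% at the same GC content. A match is a description of the letters and not of a bound factor.

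Early gene body peaks were thinner in genes longer than 500 kb. Members per Mb of zone in the 5146 genes of 20 to 50 kb numbered 36.1, 13.8, 11.7 and 96.5 in the 4 libraries. In the 768 genes of 200 to 500 kb they numbered 27.4, 11.03, 11.2 and 80.3, and in the 230 genes longer than 500 kb 27.2, 8.50, 8.50 and 72.5, from 48, 15, 15 and 128 members. In OWT1, OWT2 and YKO2 both long classes were lower than the short class, and in YKO1 the class of 200 to 500 kb was nearly level with it. The class over 500 kb rests on 15 members in OWT2 and in YKO1, and the values are given without a test because genes are not replicates.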

How the data were processed

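Chromatin of flow-sorted brain ECs was digested with MNase and precipitated with an antibody against Pol II. After trimming, the authors mapped reads with Bowtie2 to mm10, discarded duplicates and called peaks with MACS (2.2.7.1 per the file headers, paired-end fragments, q of 0.01, no control). The deposited lists give for each peak the pileup (a coverage signal in fragments), the fold enrichment (pileup as a ratio to MACS's own local background) and the p-value and q-value as −log10, none of them normalized between libraries. Fragments per library ranged from 22705175 to 65734178, and the smallest called pileup of 7 to 13 fragments sets what could be detected. Fold enrichments were therefore compared as the caller gave them.

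The members, gene lists and tests were chosen with earlier results of these data known. Genes and TSSs came from GENCODE release M21 (comprehensive, 21938 protein-coding genes, GRCm38), in which 10159 genes exceed 20 kb and 10151 keep zone bases. A gene's intron numbers follow its longest transcript holding the summit. Uniform placement was computed exactly per chromosome over non-gap bases, and the mirror is the same stretch upstream. Copies are exact matches of 24-base words on both strands of the assembled nuclear chromosomes. Copies in mitochondrial DNA or unplaced contigs were not counted. Libraries were tested with exact sign-flip and permutation tests in Python 3.11.15 (numpy 2.4.6, pandas 2.3.3, scipy 1.17.1, matplotlib 3.10.9), and binomial intervals are Clopper-Pearson at 95%. The counting was tested on simulated data. The named regions are the 10 in all 4 libraries with the highest lowest percentile of q, the 5 per group with the largest smaller −log10 q among those met by no peak of the other group, list genes with members in 3 or more libraries or in both of 1 group alone, and Klf4, Ppp1r15a, Adamts1 and Slc16a1. Cdh5, Kdr, Tek, Slc2a1, Abcb1a, Flt1, Pecam1 and Tie1 were named after their values were seen. Of the regions and genes this rule picks, 2 are not reported here. The authors' consensus of replicates was not used here. Alternatives are given in the closing part.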

Additional observations from a re-analysis of the deposited data

How the results depend on the processing

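The placement against uniform stayed between -0.27 and 0.01 (mean log2) over 16 alternatives and the downstream to upstream density between -0.19 and -0.03 over as many, below 0 in each of them. Of the values that answer a comparison, 141 alternatives stayed near the main value and 39 did not. Near meant within the spread of the main values between libraries. For numbers of shared regions it meant within a fixed fold of the main number. The replicate block leaves a group difference unchanged, so it counted as near by construction. Some alternatives were chosen after seeing the data. They were basic transcripts, GC classes, whole zones, TSS peaks of another library and the highest group of TSS peaks by q. The stretch from 5000 to 10000 bp, single-copy summits and all alternatives for peak shape, exons and first introns were also chosen then. The mean log2 ratio for a TSS peak and its group difference became 0.35 and 0.58 at q of at most 1e-05, -0.18 and -0.13 in genes over 50 kb, and 0.35 and 0.29 in genes with the whole zone. The ratio alone became 0.059 at a fold enrichment of at least 4, -0.29 from 1500 to 5000 bp and 0.12 from 5000 to 10000 bp. The difference became -0.17 with lists of equal length, and -0.11 and -0.089 with the TSS peaks of OWT2 and YKO1. With those of YKO2 the ratio was 0.092 and the difference -0.26. Regions shared by the old WT Cre and the young EC-K4KO pairs numbered 125 and 70 at q of at most 1e-05, 132 and 112 at a fold enrichment of at least 4, 142 and 62 with equal lists, 77 and 52 from 1500 to 5000 bp (10 in all 4 libraries), 117 and 90 in genes over 50 kb (21 in all 4) and 75 and 102 with single-copy summits (7 in all 4). From 5000 to 10000 bp the old WT Cre pair shared 146, and with a reciprocal overlap of 50% the young EC-K4KO pair shared 119. The mean log2 excess in exons, 0.90 as reported, was 1.05 with equal lists and 0.30 at the same GC content. Stricter or narrower lists hold fewer peaks by construction, and the cause of the other shifts was not tested.

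Leaving out each library in turn gave -0.19 to -0.03 for placement (group difference -0.32 to 0.09), -0.17 to -0.09 for downstream over upstream (-0.19 to 0.01), -0.08 to -0.0005 for the TSS ratio (0.01 to 0.16), -0.04 to 0.02 for fold enrichment over TSS peaks, 0.84 to 0.94 for the mean log2 of exons and -0.11 to -0.08 for first introns. Regions in all remaining libraries numbered 43 without YKO2 to 85 without YKO1, and a pair reduced to 1 library is that library's own list, 957 to 2530 regions in old WT Cre and 815 to 6677 in young EC-K4KO. The deviations of same-numbered libraries from their groups had a correlation of -0.05. With 2 libraries a group this is a single comparison, which cannot show whether replicate numbers pair the samples. With the replicate block the differences were -0.12, -0.09 and 0.08 as before. The exact sign-flip p was 1, from only 2 differences each, too few for the test to decide. List length did not follow total fragments, which include those piled at the tallest peaks. YKO2 had the fewest fragments and the longest list, with a smallest pileup of 7. OWT1 had the most fragments, with a smallest pileup of 13.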
